A study of Bos taurus with 6 samples.

Results

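PTGDS, listed as ENSBTAG00000015074, encodes the lipocalin-type prostaglandin D synthase. It is 1 of the 24579 genes in the count files and was chosen for its higher counts in mammary biopsies of heifers exposed to heat stress in utero (IUHT-H) than of heifers cooled in utero (IUCL-H), so its own difference between the groups is described here without a test. Its identifier was taken from the study's list of differentially expressed genes, because the files give Ensembl identifiers only. The 6 Holstein heifers were daughters of dams that had shade only (3 IUHT-H, heifers 9196, 9203 and 9204) or shade with fans and soakers (3 IUCL-H, heifers 9202, 9214 and 9223) through the final 6 to 7 weeks of gestation. The heifers themselves were managed alike after birth, and their mammary glands were biopsied on day 21 of the first lactation. The treatment therefore acted on the dam, and each library is 1 biopsy of 1 heifer. A biopsy holds several cell types, so fewer cells of a type and less RNA per cell cannot be told apart.

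Prostaglandins are short-lived lipid signals made from arachidonic acid. Phospholipases release the acid from membranes, cyclooxygenases turn it into prostaglandin H2, and terminal synthases turn that into the separate prostaglandins. PTGDS makes prostaglandin D2, which acts on the receptors PTGDR and PTGDR2 and is known for roles in sleep, inflammation and vascular tone. The same step is carried out in mast cells and other immune cells by HPGDS, an enzyme of unrelated fold. PTGDS is also a secreted lipocalin, a family of small barrel-shaped proteins that carry lipophilic molecules and that includes the whey protein beta-lactoglobulin.

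Total counts of the IUHT-H ranged from 75754791 to 84969285, below those of the IUCL-H, which ranged from 91696849 to 101361294. From 64.7% to 74.7% of them fell on the 10 genes with the most counts over all heifers together. The TMM factors, which correct the library size for such differences in composition, ranged from 0.812 to 1.19. CPM values below use this corrected library size.

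All 3 IUHT-H carried more PTGDS than all 3 IUCL-H. The raw counts were 31936, 82185 and 15320 in IUHT-H 9196, 9203 and 9204. In IUCL-H 9202, 9214 and 9223 they were 12317, 11007 and 3805. Counts were thus ample in every heifer, and heifer 9203 stood well above the other 5.

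After normalization, IUHT-H 9196, 9203 and 9204 had 354.5, 875.4 and 222.1 CPM of PTGDS. IUCL-H 9202, 9214 and 9223 had 122.4, 121.9 and 43.4 CPM. The lowest IUHT-H was 1.81-fold above the highest IUCL-H, and the highest heifer was 20.2-fold above the lowest. The IUHT-H averaged 484 ± 345 CPM and the IUCL-H averaged 95.9 ± 45.5 CPM (SD, 3 heifers each). The ratio of these means was 5.05, whereas the ratio of the medians was 2.91. The log2 fold change fitted by edgeR was 2.34 (standard error 0.57). Among all 14724 genes tested, 3.14% likewise had every IUHT-H value above every IUCL-H value.

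The order of the heifers was 9203, 9196, 9204, 9202, 9214 and 9223 from the highest to the lowest PTGDS. Counting error was small beside the distance between most neighbours in this order. The 95% Poisson interval was 218.6 to 225.7 CPM in heifer 9204 and 42 to 44.8 CPM in heifer 9223. Heifers 9202 and 9214 could not be placed in order, since their intervals of 120.3 to 124.6 CPM and 119.6 to 124.2 CPM overlapped. These intervals cover counting error only.

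**Figure D1:**
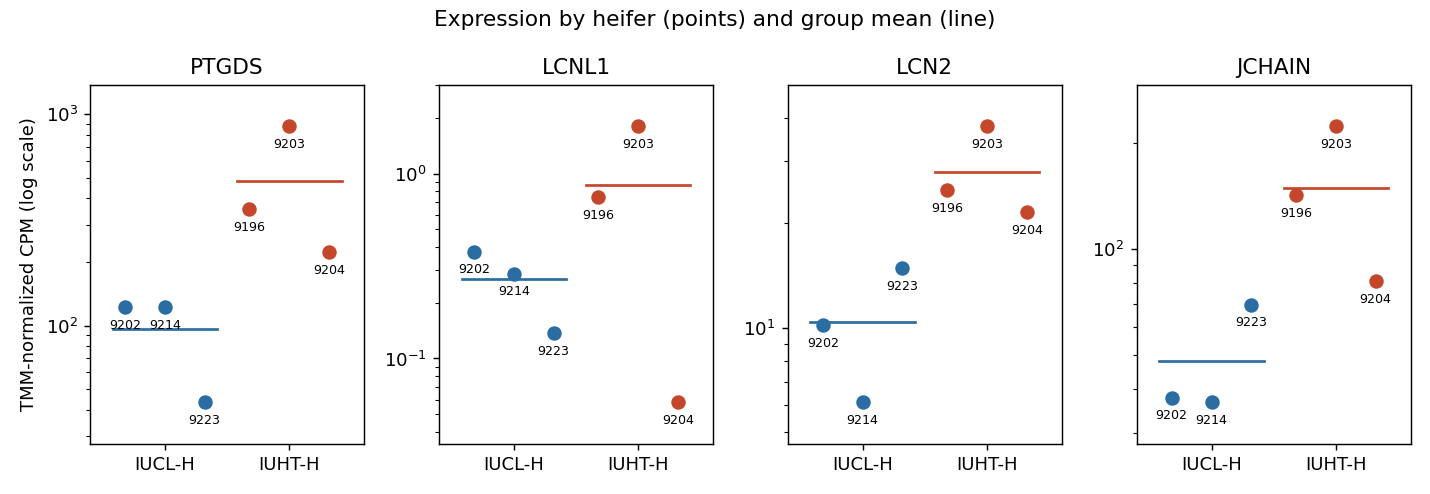
TMM-normalized CPM on a log scale for PTGDS, its genomic neighbour LCNL1, the lipocalin LCN2 and the plasma cell gene JCHAIN, with 1 labelled point per heifer and a line at the group mean (3 IUCL-H in blue, 3 IUHT-H in red). PTGDS lies between 43.4 and 122.4 CPM in IUCL-H and between 222.1 and 875.4 CPM in IUHT-H, and heifer 9203 is the highest of the 6 in each of the 4 genes.

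The rank of PTGDS by abundance differed widely between the heifers. By raw counts it ranked 25th of the 24579 genes in IUHT-H 9203, 77th in IUHT-H 9196 and 187th in IUHT-H 9204. It ranked 359th in IUCL-H 9202, 410th in IUCL-H 9214 and 1415th in IUCL-H 9223. By mean CPM the rank was 54 over the IUHT-H, 516 over the IUCL-H and 125 over all 6 heifers, with a mean of 290 CPM. These ranks compare counts that are not divided by gene length, so a long gene ranks higher than a short gene with as many transcripts.

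In the fit over all 14724 genes, 63 genes (0.428%) had P ≤ 0.01, the cut-off used in the study, and 42 of them (0.285%) were higher in IUHT-H. None had an adjusted p below 0.05 in edgeR's quasi-likelihood test, 374 had an unadjusted p below 0.05, and the exact test, the likelihood ratio test and DESeq2 gave 9, 11 and 16 genes at an adjusted p below 0.05. Of the 42 genes higher in IUHT-H, only 13 had a mean above 10 CPM. The median log2 fold change of the 42 was 1.42. PTGDS was chosen on this same contrast, so nothing is read from its place among these genes.

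PTGDS also varied widely between heifers of the same group. The SD of log2(CPM + 1) was 1 in IUHT-H and 0.85 in IUCL-H (n = 3 per group). Across the 5926 genes with a mean above 10 CPM the median was 0.15 in either group. In each group 40 of these genes (0.675%) had a larger SD than PTGDS, and 16 (0.27%) had a larger one in both. Within IUHT-H the highest value was 3.94-fold the lowest, and within IUCL-H it was 2.82-fold. The 3 genes ranked just above and the 3 ranked just below PTGDS by mean CPM, between 284.6 and 298.2 CPM, had SDs from 0.06 to 0.38 in the groups. The biological coefficient of variation that edgeR estimated for PTGDS was 0.458, against a median of 0.191 over all genes tested.

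**Figure D2:**
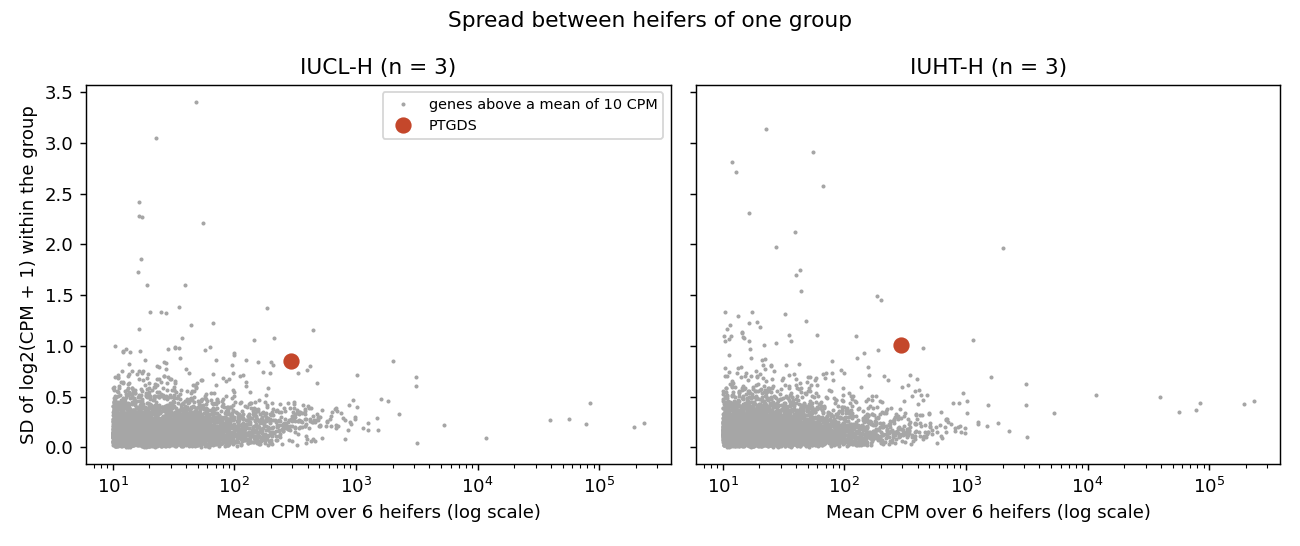
SD of log2(CPM + 1) among the 3 heifers of a group against the mean CPM over 6 heifers (log scale), for IUCL-H on the left and IUHT-H on the right, with 1 grey point for each of the genes with a mean above 10 CPM. PTGDS, in red, has an SD of 0.85 in IUCL-H and 1 in IUHT-H, where the median gene has 0.15 in either group.

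Since every IUHT-H value of PTGDS lay above every IUCL-H value, leaving out a single heifer could not reverse the direction. Only the size of the difference is therefore read from these fits, and it moved most with heifer 9203. Without IUHT-H 9203 the log2 fold change of PTGDS was 1.58 (standard error 0.44), the lowest of the 6 fits, and the ratio of the group means decreased from 5.05 to 3.01. Without IUCL-H 9223 it was 1.98 (standard error 0.57). Leaving out IUHT-H 9204 gave the highest value, 2.68 (standard error 0.52). The other 3 heifers gave values between 2.51 and 2.55 when left out. The rank by mean CPM moved from 125 to 240 without heifer 9203 and lay between 96 and 134 without any other heifer.

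**Figure D3:**
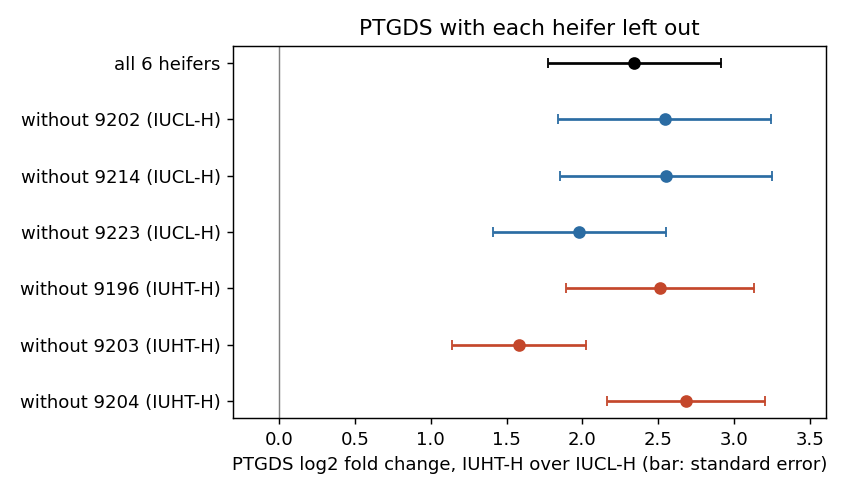
Log2 fold change of PTGDS in IUHT-H relative to IUCL-H with all 6 heifers (black) and with each heifer left out (blue for an IUCL-H, red for an IUHT-H), with bars for the standard error of the edgeR fit. The values lie between 1.58 without heifer 9203 and 2.68 without heifer 9204. Their sign was fixed in advance, because the PTGDS values of the groups do not overlap.

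The other steps of prostaglandin metabolism could be followed only in part. Of 35 further genes listed for acid release, cyclooxygenases, terminal synthases, receptors, transport and breakdown, 1 could be matched to an identifier. This was AKR1C3 (ENSBTAG00000022571), an aldo-keto reductase that reduces prostaglandin D2. It had 8, 6 and 4 counts in IUHT-H 9196, 9203 and 9204 and 19, 44 and 10 counts in IUCL-H 9202, 9214 and 9223. Unlike PTGDS, AKR1C3 was lower in IUHT-H, at 0.058 to 0.0888 CPM against 0.114 to 0.487 CPM in IUCL-H. The share of all genes with such a difference was not computed. AKR1C3 did not pass the filter for the main test. Without that filter edgeR fitted -1.88 on the log2 scale (standard error 0.64, adjusted p = 0.989 in edgeR's quasi-likelihood test). AKR1C3 came from the study's list of differentially expressed genes, so its direction is not independent evidence.

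Of 17 other lipocalin genes listed, LCN2 and LCNL1 could be matched, and 1 of these 2 passed the cut-off, against 0.428% of all genes tested. LCN2 (ENSBTAG00000014149) encodes lipocalin-2, which binds bacterial siderophores in innate defence. It had 24.8, 37.8 and 21.4 CPM in IUHT-H 9196, 9203 and 9204 and 10.2, 6.1 and 14.8 CPM in IUCL-H 9202, 9214 and 9223. Every IUHT-H value lay above every IUCL-H value, as in 3.14% of all genes tested. LCN2 differed by 1.44 on the log2 scale (standard error 0.33, adjusted p = 0.999 in edgeR's quasi-likelihood test). LCN2 was in the study's list of differentially expressed genes too, and names came only from the study's tables. The count of 1 of 2 is thus tied to how genes were matched, and nothing is read from it. Within IUHT-H the 3 heifers had the same order for LCN2 as for PTGDS, as in 16% of the other genes with a mean above 10 CPM. Within IUCL-H, heifer 9223 had the most LCN2 but the least PTGDS. Pearson's r between the genes over the 6 heifers was 0.714, and it was 0.007 after the group means were removed. Without heifers 9203 and 9223 it was 0.916.

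LCNL1 (ENSBTAG00000030296), a lipocalin-like gene, adjoins PTGDS in the RefSeq gene order of assembly ARS-UCD2.0. It had 67, 169 and 4 counts in IUHT-H 9196, 9203 and 9204 and 38, 26 and 12 counts in IUCL-H 9202, 9214 and 9223. The groups overlapped, because heifer 9204 had the fewest counts of all. On the log2 scale LCNL1 differed by 1.7 (standard error 0.91, adjusted p = 0.999 in edgeR's quasi-likelihood test). Per 1000 PTGDS counts there were 2.1 and 2.06 LCNL1 counts in IUHT-H 9196 and 9203. IUCL-H 9202, 9214 and 9223 had 3.09, 2.36 and 3.15, and the 95% Wilson intervals of these 5 heifers overlapped. All 3 IUHT-H, 9204 included, had a lower proportion than all 3 IUCL-H. How often other pairs of genes differ in this way was not computed. In heifer 9204 the proportion was 0.261 per 1000 (95% Wilson interval 0.102 to 0.671), below the lowest interval bound of the other 5, which was 1.61. These intervals cover counting error only and not the spread between heifers. Whether some LCNL1 counts come from PTGDS transcripts was not tested. Without heifer 9204 the log2 fold change of LCNL1 was 2.24, and LCNL1 passed the cut-off. Without heifer 9203 it was 0.59, so the LCNL1 value rested on both of these heifers.

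Of the 20 genes that flank PTGDS, 10 on each side, 3 could be matched, and none of the 3 passed the cut-off with all 6 heifers in any of the tests run. The other 2 besides LCNL1 are CLIC3, a chloride intracellular channel gene, and ABCA2, a lipid transporter gene. For CLIC3 (ENSBTAG00000015085) the mean was 5.29 ± 0.531 CPM over the IUHT-H and 5.02 ± 0.825 CPM over the IUCL-H. For ABCA2 (ENSBTAG00000047254) it was 11.7 ± 4.34 CPM and 12.3 ± 1.81 CPM (SD, 3 heifers each). Their log2 fold changes were 0.08 (standard error 0.17) and -0.06 (standard error 0.26). Both signs changed when single heifers were left out. The CLIC3 and ABCA2 values of the groups overlapped, and neither gene had a range like that of PTGDS, with the highest heifer 1.44-fold and 2.14-fold above the lowest. ABCA2 ranked the IUHT-H as PTGDS did and was lowest among the IUCL-H in heifer 9223. Both held in 5.65% of the other genes with a mean above 10 CPM. For ABCA2 r was 0.341 over the 6 heifers, 0.866 after the group means were removed and -0.448 without heifers 9203 and 9223. For CLIC3 the corresponding r was 0.299, 0.174 and 0.238.

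The genes that followed PTGDS most closely over the heifers were sought among the 5925 other genes with a mean above 10 CPM, with Pearson's r of log2(CPM + 1) over 6 heifers. The points share the library of each heifer, and the genes with the highest r were picked from many, so r is given as a description. In 24 genes r was 0.9 or more, and in 34 it was -0.9 or less. The highest was 0.979, in the unnamed gene ENSBTAG00000039275, and the 10 highest were all at least 0.932. None of these 10 has a name in the study's tables, which name 107 of the 5925 genes.

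These genes varied far less than PTGDS, and few ranked the heifers exactly alike, since Spearman's rho with PTGDS was 1 in only 4 of the 5925. ENSBTAG00000039275 had 19.7, 23.8 and 17.5 CPM in IUHT-H 9196, 9203 and 9204 and 16.6, 14.4 and 12.7 CPM in IUCL-H 9202, 9214 and 9223. Its highest value was 1.88-fold its lowest, where that of PTGDS was 20.2-fold. Over the 24 genes the median of this ratio was 1.36, and in 2 of the 24 it was 2 or more. The widest among them, ENSBTAG00000037778, went from 29.1 CPM in IUCL-H 9223 to 146 CPM in IUHT-H 9203, a 5.02-fold range, with r of 0.932. At the other end, ENSBTAG00000000550 had the lowest r, -0.984, but stayed between 54.9 and 58.3 CPM in the 6 heifers. Of all 5925 genes, 13 had a range as wide as that of PTGDS, and none of the 13 was among the 24.

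**Figure D4:**
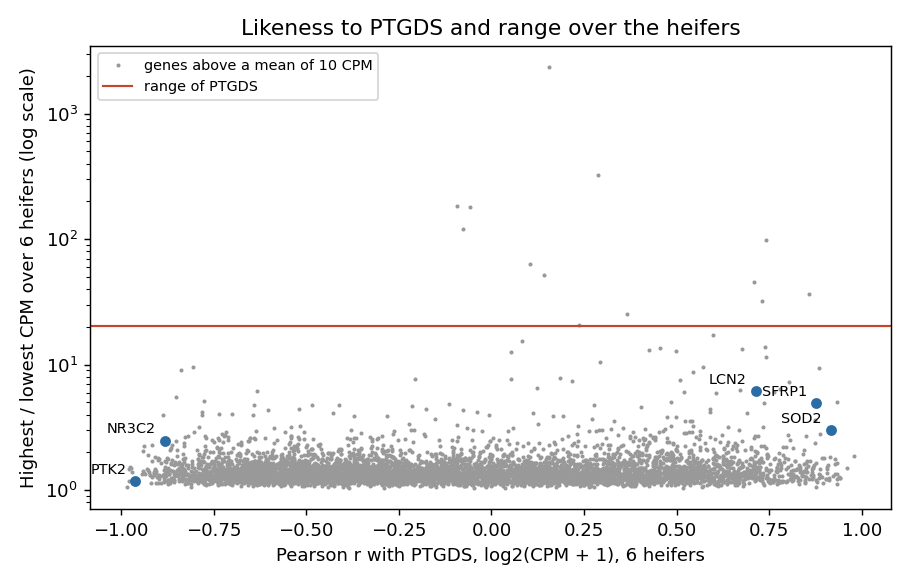
Highest over lowest CPM among the 6 heifers (log scale) against Pearson's r with PTGDS, with 1 grey point for each of 5925 genes above a mean of 10 CPM, 5 named genes in blue and the 20.2-fold range of PTGDS as a red line. The genes with the highest and the lowest r lie near the bottom of the plot, and the genes above the line all have r below 0.9.

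The list of followers was not stable. Only 1 to 3 of the 10 remained among the 10 highest when a heifer was left out, and 1 remained after the group means were removed. When CPM was computed without TMM factors, none of the 10 remained. The r of ENSBTAG00000039275 itself stayed between 0.954 and 0.994 when a heifer was left out. After the group means were removed, 116 genes had r of 0.9 or more, of which 12 were among the first 24. The 5 highest of these, with r from 0.982 to 0.989, likewise had narrow ranges, from 1.13-fold to 1.71-fold.

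A measure that counts the size as well as the order was added after these ranges were seen. It is the root mean square difference between the log2(CPM + 1) of 2 genes after the mean of each is subtracted, and a gene with the same level in all heifers would lie 1.35 from PTGDS. Of the 10 closest genes 4 were named, at distances from 0.75 to 0.89. All 4, and an unnamed gene at 0.8, stand in the study's list of differentially expressed genes. The closest of the 10, at 0.67, is unnamed and not in that list, with a 9.49-fold range and r of 0.885, or 0.939 after the group means were removed. The fourth closest, also unnamed and not in the list, had a 36.3-fold range and r of 0.856, or 0.956 after the group means were removed. The 4 named genes are SFRP1, a secreted Wnt antagonist, SERPING1, the inhibitor of the first complement component, JCHAIN, and SOD2, the mitochondrial superoxide dismutase. JCHAIN joins polymeric immunoglobulins in plasma cells. That list was drawn from the same study and contrast, so genes in it share a group difference with PTGDS by their choice.

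SFRP1 was the closest of the 4, with 31.3, 35.1 and 15.5 CPM in IUHT-H 9196, 9203 and 9204 and 15.1, 7.1 and 8.45 CPM in IUCL-H 9202, 9214 and 9223. Like PTGDS it was highest in heifer 9203 and lowest among the IUHT-H in heifer 9204. This order of the IUHT-H held in 16% of the 5925 genes above 10 CPM. SERPING1 had 163.4, 134.1 and 94.6 CPM in the IUHT-H and 86.2, 53.5 and 44.7 CPM in the IUCL-H, with the heifers of each group named as before. Its highest heifer was 9196, not 9203. SOD2 had 29.6, 33.3 and 19.3 CPM in the IUHT-H and 22.3, 14.3 and 11.1 CPM in the IUCL-H, and its groups overlapped. For SOD2, SFRP1 and SERPING1 in turn, r with PTGDS was 0.917, 0.876 and 0.873 (Spearman's rho 0.943 for each, n = 6). After the group means were removed r was 0.814, 0.616 and 0.588. Without heifers 9203 and 9223, the 2 farthest from the median of PTGDS, it was 0.736, 0.85 and 0.891 over 4 heifers.

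Of the 53 cell type markers listed for epithelium, stroma, vessels, immune cells, blood and skin, only JCHAIN could be matched to an identifier, so the tissue label and the cell makeup of the biopsies could not be checked against their markers. JCHAIN (ENSBTAG00000018531) had 142.4, 223.4 and 81 CPM in IUHT-H 9196, 9203 and 9204 and 37.9, 36.7 and 69.6 CPM in IUCL-H 9202, 9214 and 9223. On the log2 scale the difference was 1.63 (standard error 0.39, adjusted p = 0.999 in edgeR's quasi-likelihood test). JCHAIN and PTGDS ranked these 3 IUHT-H alike, as did 16% of the 5925 genes above 10 CPM. In IUCL-H 9223 JCHAIN was at its highest of the group and PTGDS at its lowest. Over the 6 heifers r between JCHAIN and PTGDS was 0.763 (Spearman's rho 0.829). After the group means were removed it was 0.236, the lowest of the 4 named genes closest to PTGDS. Without heifers 9203 and 9223, however, r rounded to 1 over the remaining 4 heifers, the highest of these 4 genes. With 1 heifer left out it lay between 0.508 and 0.977, so the value depended strongly on single heifers. The part of plasma cells in the PTGDS values was not tested.

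The same order of the 3 IUHT-H, with 9203 above 9196 above 9204, was found in 14 of the 41 genes other than PTGDS that passed the cut-off with higher values in IUHT-H (34.1%) and in 16% of the 5925 genes above 10 CPM. Heifer 9223 was the lowest IUCL-H in 15 of the 41 (36.6%) and in 25.9% of the 5925. Both held in 7 of the 41 (17.1%) and in 5.65% of the 5925. The 41 were chosen on the same contrast and heifers as PTGDS. Of the 42 genes higher in IUHT-H, PTGDS included, only 13 had a mean above 10 CPM, so the sets also differ in abundance. These shares are therefore given as a description. Of the named genes, NR3C2, the mineralocorticoid receptor gene, and PTK2, the focal adhesion kinase gene, ran most strongly against PTGDS, with r of -0.881 and -0.961. After the group means were removed r was -0.545 for NR3C2 and -0.889 for PTK2. NR3C2 itself passed the cut-off with lower values in IUHT-H, so its r includes that group difference. NR3C2 had 13.1, 11.1 and 11.9 CPM in IUHT-H 9196, 9203 and 9204 and 18.2, 25.4 and 27.5 CPM in IUCL-H 9202, 9214 and 9223. Its lowest heifer was 9203 and its highest 9223, the reverse of PTGDS. PTK2 ranged only from 56.1 to 66.7 CPM over the 6 heifers.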

How the data were processed

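RNA of mammary biopsies was sequenced as paired-end reads, and the libraries of 3 IUHT-H and 3 IUCL-H were analysed here. The study's methods describe a further IUCL-H, which was not analysed here. Per the labels, the authors mapped reads with TopHat2 (version 2.0.13) to the bovine assembly UMD3.1, whereas the study's methods name bosTau7, a different assembly, and the labels list HTSeq among their tools. The deposited values are raw read counts per Ensembl gene, not normalized. Counting settings, strand use and annotation release are not given in the sources used here.

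Low genes were dropped by filterByExpr, libraries scaled by TMM, and IUHT-H tested against IUCL-H by edgeR's quasi-likelihood test (edgeR 4.0.16, R 4.3.3) without covariates, with Benjamini-Hochberg adjustment over 14724 genes. Standard errors are the log2 fold change divided by the square root of F. DESeq2 (version 1.42.0) was run as an alternative. Correlations used log2(CPM + 1). At the depth of these libraries, 3 counts correspond to 0.0298 to 0.0435 CPM. Scripts were tested on simulated data.

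No reference genome was used. Names came from the study's supplementary tables, which name 365 identifiers, and gene order from the RefSeq table of ARS-UCD2.0. PTGDS, the lists and the tests were chosen with earlier results of these data known. Named genes were PTGDS, list members and flanking genes with an identifier, and genes ranked by r. Unnamed genes given by identifier were limited to 3. The unnamed genes described by distance only, and CLIC3, ABCA2, SFRP1, SERPING1, SOD2, NR3C2 and PTK2, were picked after their values were seen.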

Additional observations from a re-analysis of the deposited data

How the results depend on the processing

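The log2 fold change of PTGDS was between 2.33 and 2.53 under the other tests, scalings and filters and between 1.58 and 2.68 with a heifer left out. Its rank by mean CPM was 108 by library size and 115 without the 10 genes with the most counts, and lay between 96 and 240 with a heifer left out. The rank per coding length was not run, because no coding lengths were at hand. Genes at P ≤ 0.01 numbered 108, 112 and 124 with the exact test, the likelihood ratio test and DESeq2, where 63 were reported, and 38 to 246 with a heifer left out (246 without IUCL-H 9202, 225 without IUHT-H 9204 and 38 without IUCL-H 9214). Genes with an adjusted p below 0.05 numbered 9, 11 and 16 with those tests, 1 without a filter beyond 1 count, and 0 to 3 with a heifer left out (3 without IUHT-H 9196 and 2 without IUHT-H 9203). With a heifer left out, 0 to 1 prostaglandin genes (AKR1C3, without IUCL-H 9223), 1 to 2 lipocalins and 0 to 1 flanking genes (LCNL1, both without IUHT-H 9204) passed the cut-off. Of the 10 genes with the highest r, 5 remained with Spearman's rho, 2 with a minimum of 1 CPM, 0 by library size, 2 without the 10 genes with the most counts, 1 with group means removed, 1 by distance and 1 to 3 with a heifer left out. The cause was not tested. By library size alone the log2 fold change was 0.08 for ENSBTAG00000000550, 0.13 for ABCA2 and 0.01 for PTK2, against -0.05, -0.06 and -0.13 as reported. That of CLIC3 was -0.05 without IUCL-H 9202 and 0 without IUHT-H 9203, and that of ABCA2 lay between -0.37 without IUHT-H 9203 and 0.17 without IUHT-H 9204, with 0.06 without IUCL-H 9214. JCHAIN did not pass the cut-off without IUCL-H 9202 or 9214 (log2 fold change 1.49 and 1.47), and LCN2 passed it in every fit. No paired analysis was possible because the labels give heifer numbers that the groups do not share. AKR1C3, with 4 to 44 counts a heifer, and LCNL1, with 4 to 169, had the fewest counts of the genes named.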
